A study of Mus musculus with 3 samples.

Results

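Y RNAs and 7SK RNA, small noncoding transcripts of RNA polymerase III, were followed across 3 RNA immunoprecipitation libraries from mouse hippocampus. Members were the entries named exactly HY1, HY3 or 7SK in the count tables, which gave 3 of 18484 listed repeat names, and all 3 had reads in every library. RNA immunoprecipitation sequencing counts the RNA that an antibody precipitates from a lysate. PS19 mice gave 2 of the libraries, one precipitated with an antibody to the ZBP1 protein and one with an antibody to Z-form nucleic acid (ZNA). Wild-type (WT) mice gave the third, precipitated with the ZNA antibody. All mice were aged 9 months and on a C57BL/6 background. PS19 mice carry a transgene for mutant human tau, driven by a prion protein promoter, and WT mice served as the comparison for the ZNA antibody only. Each group had 1 library, which leaves the values without a replicate error, and the labels do not say whether a library pools several animals. Input RNA, an isotype control and ZBP1 precipitates of WT mice were not analysed here.

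Y RNAs fold into a stem with a large internal loop. The Ro60 protein binds a conserved bulge in the stem and the La protein binds the uridine-rich 3′ tail. They are known for roles in the quality control of misfolded RNA and in the start of DNA replication, and Ro60 and La are autoantigens in lupus and Sjögren's syndrome. 7SK is an abundant nuclear RNA that is capped by MEPCE and held by LARP7. Together with HEXIM proteins it keeps the elongation factor P-TEFb inactive, which limits the release of paused RNA polymerase II. ZBP1 is a sensor protein whose Z-alpha domains bind left-handed (Z-form) nucleic acid.

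The names HY1 and HY3 are those that RepeatMasker takes from the human Y1 and Y3 RNAs. A name pools the gene with every copy of it in the genome, and Y RNA and 7SK genes have pseudogene copies, so no value can be assigned to a position. The RefSeq annotation of GRCm38.p6 lists 2 genes of the Y RNA type, Rny1 and Rny3. They lie next to each other with only the pseudogene Rpl31-ps7 between them, and Rn7sk, the 7SK gene, lies between Cilk1 and C920006O11Rik. The submitters' processing notes name another build, mm39, so no coordinates are given. The other Y RNA names of the tables, HY4 and HY5, had 0 reads in every library, which (at 3 reads) allows up to 2.10 CPM (reads per 1000000 reads on all names) for PS19 ZBP1, 1.03 for PS19 ZNA and 0.927 for WT ZNA.

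Values were scaled in 2 ways. CPM values divide by all reads on repeat names. These totals were 1425383 for PS19 ZBP1, 2918985 for PS19 ZNA and 3234786 for WT ZNA. The large-subunit and small-subunit ribosomal RNA names held 94.8%, 89.4% and 95.5% of these reads. The second scale therefore divides by the reads outside rRNA, 74474, 308613 and 145372 in the same order, again scaled to 1000000 reads. Intervals are exact 95% intervals of the read counts. They cover counting error only and do not show how far 2 libraries of one kind would lie apart. Reads carry no molecular identifiers, so copies of one molecule may be counted more than once and the intervals may be too narrow. BC1_Mm, the neuronal BC1 RNA, had 33, 146 and 77 reads, and the tables hold no other marker of the tissue.

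On both scales each of the 3 RNAs was highest in the WT ZNA library, intermediate in the PS19 ZNA library and lowest in the PS19 ZBP1 library. HY1 had 14 reads for PS19 ZBP1 (9.82 CPM, 5.37 to 16.5), 348 for PS19 ZNA (119.2 CPM, 107.0 to 132.4) and 657 for WT ZNA (203.1 CPM, 187.9 to 219.2). HY3 had 18 reads for PS19 ZBP1 (12.6 CPM, 7.48 to 19.96), 175 for PS19 ZNA (59.95 CPM, 51.4 to 69.5) and 527 for WT ZNA (162.9 CPM, 149.3 to 177.4). 7SK had 330 reads for PS19 ZBP1 (231.5 CPM, 207.2 to 257.9), 3542 for PS19 ZNA (1213 CPM, 1174 to 1254) and 4556 for WT ZNA (1408 CPM, 1368 to 1450). Whether neighbouring libraries had separate CPM intervals is not read as a result, because the share of all names with separate intervals was not counted. Per library total, 695 of 713 names had a log2 ratio above 0 in PS19 ZNA over WT ZNA. In PS19 ZBP1 over PS19 ZNA, 620 of 682 lay below 0. In such bulk precipitates, fewer cells that make an RNA and less of it per cell cannot be told apart. Without input RNA or an isotype control, neither can be told apart from a difference in what was precipitated. Between the PS19 libraries the antibody itself differs. For the Y RNA names the ZBP1 value rests on 14 and 18 reads, against 330 for 7SK.

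The order was the same, with wider steps between the ZNA libraries, when reads were divided by those outside rRNA. Per 1000000 reads outside rRNA, HY1 had 188.0 reads for PS19 ZBP1, 1128 for PS19 ZNA and 4519 for WT ZNA. HY3 had 241.7, 567.1 and 3625 in the same order, and 7SK had 4431, 11477 and 31340. Of the reads outside rRNA, the 3 RNAs together held 0.486% for PS19 ZBP1, 1.32% for PS19 ZNA and 3.95% for WT ZNA. These levels are not corrected for transcript length and do not rank the RNAs against each other.

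**Figure D1:**
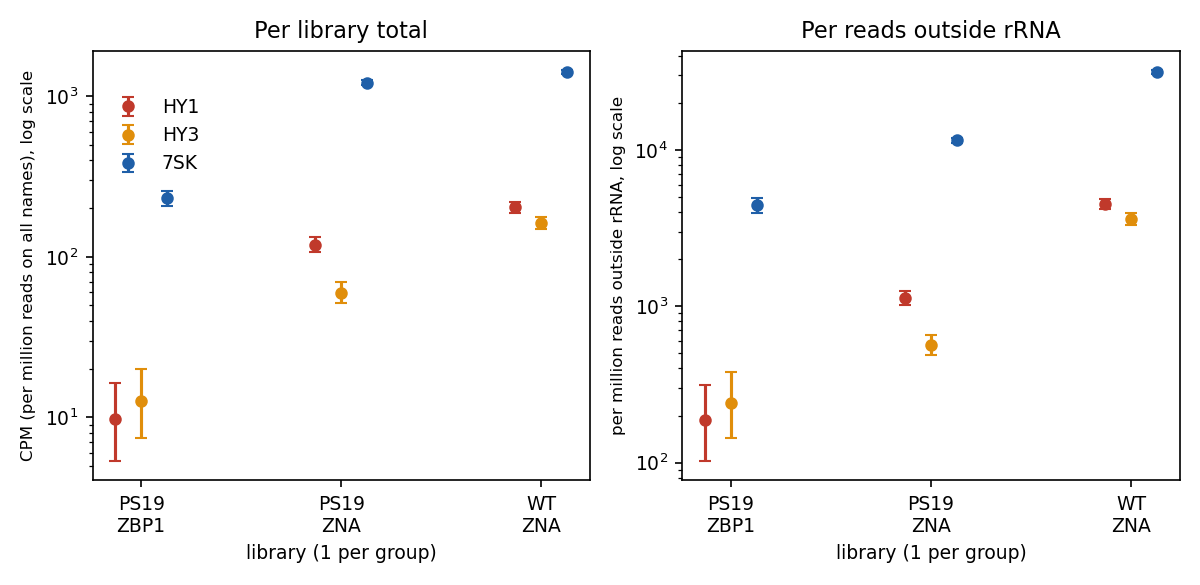
Level of HY1, HY3 and 7SK in each library (x axis), per 1000000 reads on all names (left) and per 1000000 reads outside rRNA (right), both on log axes; points are single libraries and bars are 95% Poisson counting intervals. Each RNA steps down from the WT ZNA to the PS19 ZNA to the PS19 ZBP1 library, with HY1 going from 203.1 to 119.2 to 9.82 CPM.

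With the ZNA antibody, the question was how these RNAs differ between the genotypes. HY3 was lowest in PS19 relative to WT, followed by HY1. The direction of 7SK depended on the scale. Per library total, HY3 was 2.72-fold lower in the PS19 library (2.29 to 3.24), HY1 was 1.70-fold lower (1.49 to 1.95) and 7SK was 1.16-fold lower (1.11 to 1.21). Per reads outside rRNA, HY3 was 6.39-fold lower (5.38 to 7.63), HY1 4.01-fold lower (3.51 to 4.58) and 7SK 2.73-fold lower (2.61 to 2.85). Per read of the other small structural RNAs, HY3 was 2.39-fold lower (2.01 to 2.85) and HY1 1.5-fold lower (1.31 to 1.71), but 7SK was 1.02-fold lower with an interval that includes no difference (0.975 to 1.07). Relative to U1 alone, an alternative chosen after seeing the data, 7SK was 1.22-fold higher in PS19 (1.17 to 1.28), while HY3 was 1.92-fold lower and HY1 1.20-fold lower.

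Most repeat names lay in the other direction on the first scale. rRNA names held 89.4% of the PS19 ZNA reads and 95.5% of the WT ZNA reads. On that scale a smaller rRNA share raises the names outside rRNA together. Among the 713 names compared, the median log2 ratio of PS19 to WT was 1.24 per library total, and 695 lay above 0. Only 1 of the 3 RNAs, HY3, was at least 2-fold lower, against a background of 0.421% of names. None of the 3 was at least 2-fold higher, against 74.3% of names. No name had a lower ratio than HY3, 3 names had a lower ratio than HY1 and 10 had a lower ratio than 7SK. Per reads outside rRNA, where the median of 711 names was 0.08, all 3 RNAs were at least 2-fold lower in PS19, against a background of 2.95% of names lower and 4.64% higher. On that scale no name lay below HY3, 3 lay below HY1 and 9 lay below 7SK.

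Within PS19, the antibodies to ZBP1 and to ZNA were then compared. All 3 RNAs were lower in the ZBP1 library, HY1 by the most and HY3 and 7SK by similar amounts. Per library total, HY1 was 12.1-fold lower (7.14 to 22.4), 7SK 5.24-fold lower (4.68 to 5.88) and HY3 4.75-fold lower (2.92 to 8.20). Per reads outside rRNA, HY1 was 6.00-fold lower (3.53 to 11.1), 7SK 2.59-fold lower (2.31 to 2.91) and HY3 2.35-fold lower (1.44 to 4.05). Relative to U1, the differences were 11.0-fold for HY1, 4.75-fold for 7SK and 4.30-fold for HY3, close to those per library total. The direction was the same for each RNA under every scaling tried.

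The background differed strongly between the scales here. Per library total, all 3 RNAs were past 2-fold in the lower direction with the ZBP1 antibody, and so were 50.1% of the 682 names, whose median log2 ratio was -1.002, so that count alone says little about these RNAs. None of the 3 was at least 2-fold higher, against 0.293% of names. Their positions were nevertheless low, with 1 name below HY1, 12 below 7SK and 27 below HY3. Per reads outside rRNA, all 3 RNAs were again at least 2-fold lower, against a background of 9.41% of 680 names lower, 9.12% higher and a median of -0.05. On that scale 3 names lay below HY1, 30 below 7SK and 41 below HY3.

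**Figure D2:**
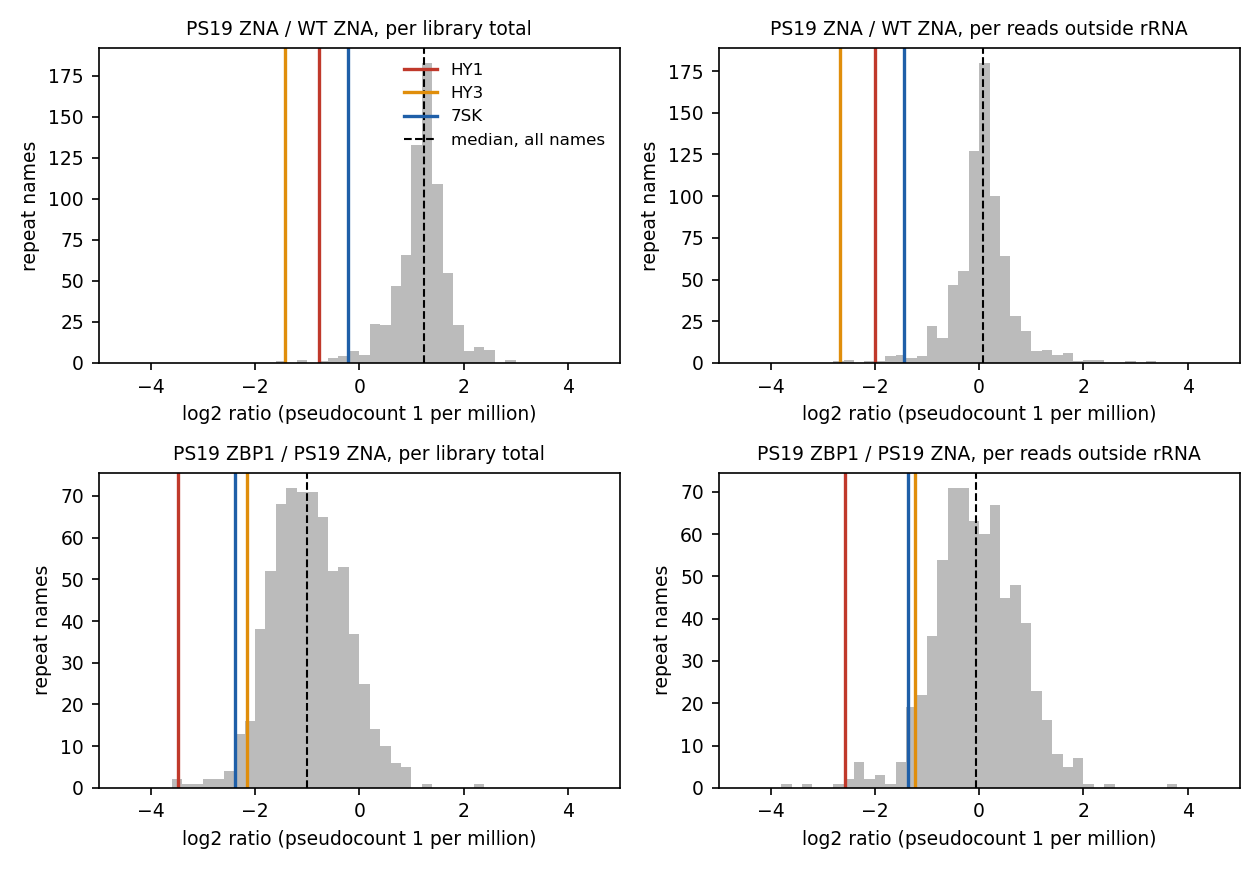
Number of repeat names (y axis) by log2 ratio (x axis, pseudocount of 1 per 1000000 reads) for PS19 ZNA over WT ZNA (top) and PS19 ZBP1 over PS19 ZNA (bottom), per library total (left) and per reads outside rRNA (right); coloured lines mark HY1, HY3 and 7SK, and dashed lines mark the median of all names. The 3 RNAs lie at the low edge of the names in the upper panels, where the medians are 1.24 and 0.08, and in the lower panels HY1 lies farther out than HY3 and 7SK.

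Ratios of reads between the RNAs within a library do not depend on how libraries are scaled. Only their change between libraries is read, since the RNAs differ in length. The ratio of HY1 to HY3 differed between the PS19 ZNA library and each of the other libraries. The number of HY1 reads per HY3 read was 0.778 for PS19 ZBP1 (0.358 to 1.66), 1.99 for PS19 ZNA (1.65 to 2.40) and 1.25 for WT ZNA (1.11 to 1.40). The ratio was thus highest in the PS19 ZNA library. It was 1.59-fold higher there than in the WT ZNA library (odds ratio, exact interval 1.28 to 1.99). From the ZNA to the ZBP1 library of PS19 it was 2.55-fold lower (1.17 to 5.69), on 14 and 18 reads in the ZBP1 library. Between PS19 ZBP1 and WT ZNA, which differ in genotype and antibody, its change was 0.624-fold, with an interval that includes no difference (0.284 to 1.34).

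Each Y RNA name was also set against 7SK. HY1 reads per 100 7SK reads were 4.24 for PS19 ZBP1 (2.29 to 7.22), 9.82 for PS19 ZNA (8.78 to 10.97) and 14.4 for WT ZNA (13.3 to 15.7). HY3 reads per 100 7SK reads were 5.45 (3.19 to 8.76), 4.94 (4.22 to 5.75) and 11.6 (10.5 to 12.7) in the same order. With the ZNA antibody, both Y RNA names were thus lower relative to 7SK in PS19 than in WT, HY1 by 1.47-fold (1.28 to 1.69) and HY3 by 2.34-fold (1.96 to 2.81). Between the pull-downs of PS19, HY1 was lower relative to 7SK by 2.32-fold (1.34 to 4.33) in the ZBP1 library. The change of HY3 relative to 7SK was 1.10-fold with an interval from 0.631 to 1.83, so a difference was not detectable at this depth.

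**Figure D3:**
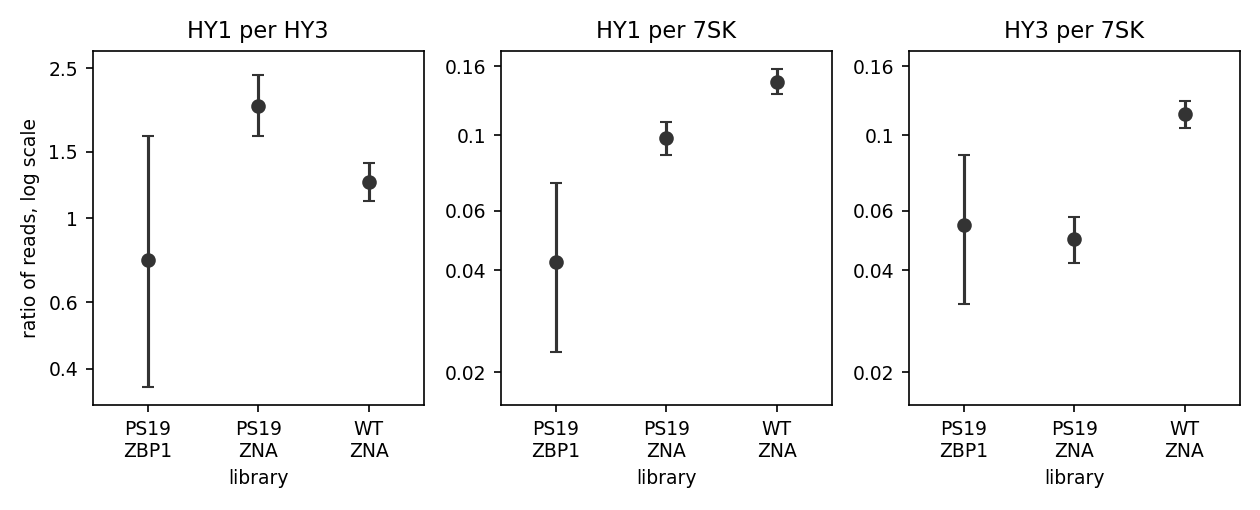
Ratio of reads (y axis, log scale) of HY1 to HY3, HY1 to 7SK and HY3 to 7SK in each library (x axis); points are single libraries and bars are exact 95% counting intervals. HY1 per HY3 peaks in the PS19 ZNA library at 1.99, while HY3 per 7SK is 0.0545 and 0.0494 in the PS19 libraries and 0.116 in the WT ZNA library.

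The other small RNAs of RNA polymerase III that had enough reads lay above 0 in the PS19 to WT ratio per library total. Of 56 further names, 47 lacked reads in all 3 libraries, and 3 were compared in each contrast. They were 7SLRNA, the RNA of the signal recognition particle, 4.5SRNA, a rodent small RNA, and BC1_Mm. Of 49 tRNA names, 4 had reads, which came to 0 reads for PS19 ZBP1, 7 for PS19 ZNA and 1 for WT ZNA. U6, the polymerase III transcript of the spliceosome, had 4, 2 and 3 reads, and 5S rRNA had 0, 0 and 1. Per library total, 2 of these 3 names, BC1_Mm and 4.5SRNA, were past 2-fold higher in PS19 and 0 past 2-fold lower. Over all names 74.3% were past 2-fold higher and 0.421% lower. The median log2 ratio of the 3 names was 1.04, against 1.24 over all names and -0.76 for the HY1, HY3 and 7SK set. With rRNA reads left out of the total, 4.5SRNA was past 2-fold higher and 0 were past 2-fold lower, against 4.64% and 2.95% of all names. BC1_Mm and 7SLRNA lay below 0 there, and the median was -0.16.

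Those 3 RNAs differed among themselves. 7SLRNA had 17 reads (11.9 CPM) for PS19 ZBP1, 118 (40.4 CPM) for PS19 ZNA and 98 (30.3 CPM) for WT ZNA. BC1_Mm had 23.2, 50.0 and 23.8 CPM, and 4.5SRNA had 42.1, 48.6 and 8.04 CPM. None of them was highest in WT per library total. Scaled to 1000000 reads outside rRNA, 7SLRNA had 228.3 reads for PS19 ZBP1, 382.4 for PS19 ZNA and 674.1 for WT ZNA. BC1_Mm had 443.1, 473.1 and 529.7. Both follow the same order of libraries as HY1, HY3 and 7SK, though the intervals of BC1_Mm overlap. Those of 7SLRNA also overlap between PS19 ZBP1 (133.0 to 365.5) and PS19 ZNA (316.5 to 457.9). On that scale 4.5SRNA had 805.7, 460.1 and 178.9, the reverse order. Between the pull-downs, 7SLRNA was 3.39-fold lower in the ZBP1 library per library total (2.03 to 6.01) and BC1_Mm 2.16-fold lower (1.47 to 3.26). 4.5SRNA was 1.16-fold lower per library total with an interval that includes no difference (0.849 to 1.59), and 1.75-fold higher per reads outside rRNA (1.27 to 2.38). On the scale without rRNA, 0 of these 3 names reached 2-fold in either direction, against 9.41% of all names lower and 9.12% higher.

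Small nuclear and nucleolar RNAs made by RNA polymerase II gave a second reference. Of 10 such names, 9 were compared between PS19 and WT, and U7 had 0 reads. U1 and U2, the RNAs that recognise the 5′ splice site and the branch point, were the only 2 of the 9 below 0 per library total. U1 had 876.3 CPM for PS19 ZBP1, 967.1 for PS19 ZNA and 1371 for WT ZNA. U2 had 21.7, 85.6 and 117.2 CPM. U1 was thus 1.42-fold lower in PS19 than in WT (1.35 to 1.49) and U2 1.37-fold lower (1.16 to 1.61), between HY1 and 7SK in size. Per reads outside rRNA, U1 was 3.34-fold lower (3.18 to 3.50) and U2 3.22-fold lower (2.74 to 3.79). They were the 2 names of the 9 past 2-fold lower on that scale, against 2.95% of all names. The other 7 names, U3, U4, U5, U8, U13, U14 and U17, had log2 ratios from 0.53 to 2.54 per library total, and 4 of these 7 also lay above 0 per reads outside rRNA.

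Between the pull-downs U1 and the 3 RNAs separated. U1 was 1.10-fold lower in the ZBP1 library per library total (1.03 to 1.18) and 1.83-fold higher per reads outside rRNA (1.71 to 1.96). The number of 7SK reads per 100 U1 reads was 26.4 for PS19 ZBP1 (23.3 to 29.9), 125.5 for PS19 ZNA (119.4 to 131.9) and 102.7 for WT ZNA (98.5 to 107.1). HY1 reads per 100 U1 reads were 1.12, 12.3 and 14.8, and those of HY3 were 1.44, 6.20 and 11.9. U2 was 3.94-fold lower with the ZBP1 antibody (2.70 to 5.92) and U5 3.93-fold lower (2.43 to 6.71), while U4 was 1.12-fold higher with an interval that includes no difference (0.743 to 1.67), all per library total. Per reads outside rRNA, U2 was 1.95-fold lower (1.34 to 2.93), U5 1.94-fold lower (1.20 to 3.32) and U4 2.27-fold higher (1.5 to 3.38). On both scales the intervals of U2 and U5 overlap those of HY3, and those of U4 do not. Of the 8 polymerase II names compared here, 4 were past 2-fold lower by library total and 0 past 2-fold higher. Over all names these shares were 50.1% and 0.293%. By reads outside rRNA, 0 were past 2-fold lower and 1, U4, higher, against 9.41% and 9.12% of all names. On the latter scale the median was -0.12. For HY1, HY3 and 7SK that median was -1.37.

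**Figure D4:**
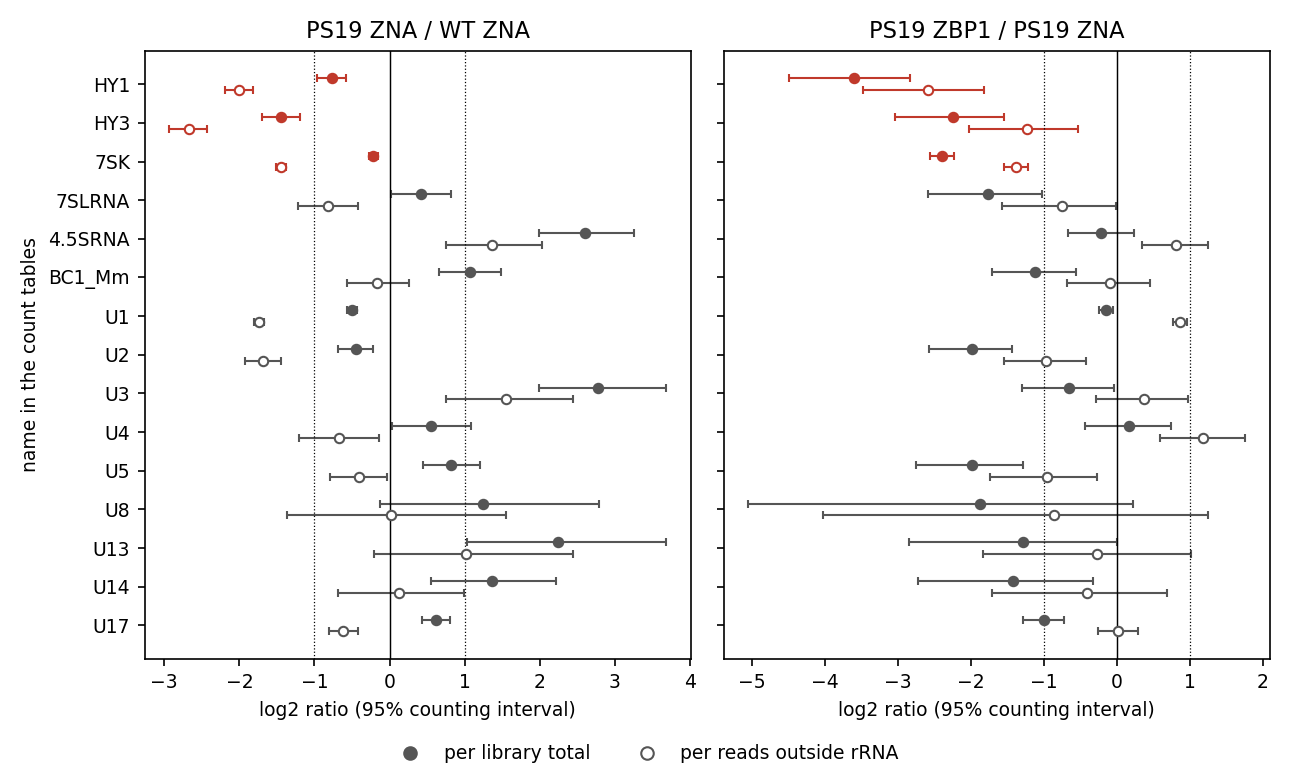
Log2 ratio (x axis) of HY1, HY3 and 7SK (red) and of 12 other small RNA names (grey) for PS19 ZNA over WT ZNA (left) and PS19 ZBP1 over PS19 ZNA (right); filled points are per library total, open points per reads outside rRNA, bars are exact 95% counting intervals and dotted lines mark 2-fold. On the left U1 and U2 lie beside the red points, and on the right U1 lies near 0 or above it while HY1 is at -3.60 and -2.58.

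As a share of all small structural RNA reads, HY1, HY3 and 7SK together held 18.1% for PS19 ZBP1, 47.7% for PS19 ZNA and 50.5% for WT ZNA. The summed reads of the other small structural RNAs numbered 1635, 4456 and 5624, of which U1 held 76.4%, 63.4% and 78.9%. Pooled, the 3 RNAs were 5.48-fold lower with the ZBP1 than with the ZNA antibody per library total (4.92 to 6.12), against 2.71-fold per reads outside rRNA (2.43 to 3.03). The other small structural RNAs without U1 were 2.07-fold lower there per library total (1.85 to 2.31), against 1.02-fold per reads outside rRNA, with an interval that includes no difference (0.913 to 1.14). Pooled 7SK and Y RNA values are mostly 7SK, which held 91.2%, 87.1% and 79.4% of the reads of the 3 RNAs.

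Likeness of pattern was measured as the distance over both log2 ratios among the 467 names whose average over the 3 libraries reached 10 CPM. The name nearest to 7SK was U2 (distance 0.51), followed by the retroviral repeat RLTR16C_MM (0.78) and the LINE-1 name L1M4a2 (0.85). The name nearest to HY3 was also U2 (1.01), followed by 7SK (1.23) and HY1 (1.47). The name nearest to HY1 was 7SK (1.22), followed by the LINE-1 name L1ME4a (1.43), with 1 read in the ZBP1 library, and HY3 (1.47). The distances of HY1 and HY3 to their nearest names were each larger than a 2-fold step, which is 1 on this scale. The ratios share the PS19 ZNA library, and the distances are a description of these libraries.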

How the data were processed

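The deposited values were whole-number read counts per repeat name, not normalized, per the file headers. The submitters' processing notes name Trim Galore 0.6.5, STAR 2.5.3a, featureCounts 2.0.4 and the build mm39. The repeat annotation, the strand setting and how multi-mapping reads were counted are not given in the sources used here, and these choices move reads between a gene and its pseudogene copies. TRIzol extraction and a NEBNext Ultra kit are given in the labels' protocols.

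Groups were taken from the sample titles. Each file lists the same 18484 names, of which 1475 had a read. CPM used each library's total over all names (1425383, 2918985 and 3234786 reads). For calls of 2-fold and positions among names, log2 ratios had a pseudocount of 1 CPM (or of 1 per 1000000 reads outside rRNA), and names needed a mean of at least 1 CPM and 20 reads over the 2 libraries. Folds of single RNAs have no pseudocount, with 95% Clopper-Pearson intervals conditional on the summed reads. CPM values have exact Poisson intervals, and changes of read ratios have exact conditional odds ratio intervals. With 1 library per group no test between conditions was made and no p-value is given. The comparison was tested on simulated data. The simulated pairs of libraries held counting error only. They had no common shift of names and no spread between replicates, so neither was checked.

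Alternatives were TMM scaling (edgeR 4.0.16, per pair of libraries), scaling to reads outside rRNA, to other small structural RNAs or to U1, other pseudocounts, filters and fold limits, and summed Y RNA names. The names reported were HY1, HY3 and 7SK, related small RNAs with at least 20 reads in all, and the 3 names nearest in pattern to each. These and the lists were chosen with earlier results of these data known. Computation used scipy 1.17.1, pandas 2.3.3 and numpy 2.4.6 in Python 3.11.15, with R 4.3.3 for edgeR and matplotlib 3.10.9 for figures.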

Additional observations from a re-analysis of the deposited data

How the results depend on the processing

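Of 36 recomputed log2 ratios of HY1, HY3 and 7SK, 35 stayed below 0. The exception was 7SK in PS19 ZNA over WT ZNA, which went from -0.21 to 0.29 relative to U1. Relative to the other small structural RNAs it was -0.027, with an interval that includes no difference. The 36 include pseudocounts of 1 and 5 CPM, which cannot change the direction of a ratio. Without changing direction, 16 of the 36 moved beyond the counting interval of the main value. In PS19 ZNA over WT ZNA, HY1 went from -0.77 to -2.00 per reads outside rRNA, -2.08 under TMM and -0.26 relative to U1. HY3 went from -1.44 to -2.68, -2.76 and -0.94, and 7SK to -1.45 per reads outside rRNA and -1.53 under TMM. In PS19 ZBP1 over PS19 ZNA, HY1 went from -3.60 to -2.58 per reads outside rRNA and -2.57 under TMM, HY3 from -2.25 to -1.23 and -1.21, and 7SK from -2.39 to -1.37 and -1.36. 7SK was at -1.98 relative to the other small structural RNAs. With HY1 and HY3 summed, the log2 change of the Y RNA to 7SK read ratio in PS19 ZNA over WT ZNA was -0.82, against -0.55 and -1.23 alone.

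Names past the fold limit moved with the scaling, which by construction removes the common shift of names outside rRNA. In PS19 ZNA over WT ZNA, 530 higher and 3 lower names became 33 and 21 per reads outside rRNA, 23 and 20 under TMM, and 27 and 0 at 4-fold. A pseudocount of 5 CPM and a mean of at least 10 CPM each left 1 lower name, and no filter gave 14. In PS19 ZBP1 over PS19 ZNA, 2 higher and 342 lower became 62 and 64 per reads outside rRNA, 58 and 54 under TMM, and 1 and 41 at 4-fold. Higher names there numbered 1 with a pseudocount of 5 CPM, 34 without a filter, 0 at a mean of at least 10 CPM and 14 at 1.5-fold. A larger pseudocount pulls every log2 ratio toward 0, so counts past the limit cannot rise. A stricter filter keeps a subset of the names and no filter adds names, so the direction of these moves was fixed in advance.

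No paired analysis was possible because each group had 1 library, so leave-one-out values do not exist. Depth limits the ZBP1 values of HY1 and HY3 most, where 1 read is 0.702 CPM.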
